A study of Rattus norvegicus with 22 samples.

Results

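The genes examined here are those that cut proteins into peptides, carry the peptides and display them to T cells in the rat lung. A gene was taken when its annotated symbol started with RT1-, the rat name for the major histocompatibility complex (MHC), or was Cd74, Ciita, B2m, Tap1, Tap2, Tapbp, Psmb8, Psmb9, Psmb10, Psme1, Psme2, Erap1, Ctss, Ifi30, Nlrc5, Canx or Calr. This gave 35 of the 14217 genes that have a probe set with a single symbol, 25 of them in the class I pathway and 10 in the class II pathway. Each gene was read through its probe set with the highest mean signal, and every value below is a log2 signal after quantile normalization unless another scale is named.

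The study injected polystyrene microspheres of 25 micron into a jugular vein of male Sprague-Dawley rats, of about 350 g by the sample records and somewhat heavier by the methods of the study, where they lodge in the pulmonary arteries and serve as a model of pulmonary embolism (PE). RNA from the right lung of each rat was hybridized to its own Affymetrix rat genome array. Vehicle rats, 3 at 18 h and 3 at 2 h, received 0.15 ml per 100 g of body weight of the 0.01% Tween 20 solution that also carried the beads. Mild PE rats, 4 at each time, received 0.1 ml per 100 g of a 10% suspension, or 1300000 microspheres per 100 g. Severe PE rats, again 4 at each time, received 0.15 ml or 2000000 microspheres per 100 g. All 22 lungs were lavaged with 8 ml before RNA was taken, a step that washes out free cells of the airspace. Sprague-Dawley rats are an outbred stock, and the RT1 alleles of each rat are not given in the sources used here.

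Class I molecules sit on nearly all nucleated cells and show peptides of the cell's own proteins to CD8 T cells. The immunoproteasome (Psmb8, Psmb9, Psmb10) with its activator (Psme1, Psme2) cuts the peptides, the transporter Tap1 and Tap2 moves them into the endoplasmic reticulum, Erap1 trims them, and Canx, Calr and Tapbp help to load them onto a class I heavy chain bound to B2m. Class II molecules belong mainly to dendritic cells, B cells and macrophages and show endocytosed antigen to CD4 T cells. Cd74, the invariant chain, blocks the class II groove until the protease Ctss has cut it, after which RT1-DM exchanges its last fragment for a peptide, while Ifi30 reduces disulfide bonds of antigens in the lysosome. Nlrc5 and Ciita are the transactivators of the class I and class II genes, and interferon-gamma is the best known inducer of both pathways. In the lung, alveolar type II cells also carry class II molecules.

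The arrays correlated at 0.9411 to 0.9852 with each other. On 4 arrays, here called the low-5′ arrays, the control probe set for the 5′ end of Gapdh was below that for its 3′ end by 0.346 to 0.638 on the log2 scale, against 0.176 to 0.322 on the others. They were those of rat 4 of 18-h Mild PE, rat 1 of 18-h Vehicle, rat 1 of 2-h Severe PE and rat 3 of 2-h Vehicle. Counts of members called without them are given where these moved clearly, and calls of single genes only in part. Of the 35 genes, 34 matched a RefSeq gene (RT1-A did not), and 22 of these lie on chromosome 20, which carries the RT1 complex. Alveolar type II cell markers such as surfactant protein C had a summed linear signal of 116000 to 134000 in every rat, and none of the markers examined for the 7 cell types was at the floor in all rats. These are whole lungs, so fewer cells of a type and less RNA per cell cannot be told apart.

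A gene was called changed when limma's test of the 2 groups gave a Benjamini-Hochberg adjusted p under 0.05 over all 31042 probe sets and the means differed by at least 1.5-fold. By this rule, few of the 35 genes changed in any pair of groups. Against 18-h Vehicle, 2 genes rose in 18-h Severe PE lungs, Calr (log2 difference 0.77 ± 0.06 SE) and Ctss (0.69 ± 0.12), while 9.9% of all genes were called in that comparison. RT1-DMa alone was called in 18-h Mild PE lungs against 18-h Vehicle (0.92 ± 0.13), where 1.43% of all genes were called. A limma fit that shared its spread over all 22 arrays called 4 members in 18-h Severe PE (Calr, Ctss and RT1-DMa higher and RT1-M3-1 lower, with 16% of all genes called) and 2 in 18-h Mild PE (RT1-DMa and RT1-N3 higher, with 6.74% of all genes). The methods' t-test called Calr alone in 18-h Severe PE (5.82% of all genes) and 0 members in 18-h Mild PE (0.204%). At 2 h no member was called against Vehicle in either PE group, while 0.429% of all genes were called with Mild PE and 0.0422% with Severe PE. The unadjusted p at 2 h was under 0.05 for 9 members and 2208 of the 14217 genes with Mild PE. With Severe PE it was so for 0 members and 1201 genes. Against 18-h Vehicle, it was under 0.05 for 10 members and 3503 genes with Mild PE, and for 11 members and 4743 genes with Severe PE. At 2 h the 22-array fit called RT1-DMa with Mild PE (0.633% of all genes) and 0 members with Severe PE (0.9% of all genes), and the methods' t-test called 0 members in both (0.0563% and 0.0211% of all genes with Mild and Severe PE).

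Separation of the groups rat by rat differed between the doses at 2 h. In 2-h Mild PE lungs, 9 members were higher in all 4 rats than in all 3 Vehicle rats (25.7%, against 8.34% of all genes) and 0 were lower (6.82% of all genes). They were Cd74, RT1-Da, RT1-Db1, RT1-DMa and RT1-DMb of class II, and Nlrc5, Psmb10, Tap1 and Tap2 of class I. In 2-h Severe PE lungs, 0 members lay wholly above and 0 wholly below Vehicle, while 4.29% and 3.21% of all genes did. The median difference in 2-h Mild PE was 0.28 over the 25 class I genes and 0.36 over the 10 class II genes, against 0.01 over all genes, and 19 class I and 9 class II genes (80% of members) had a positive difference, against 53.7% of all genes. Without 2-h Vehicle rat 3, a low-5′ array and the lowest Vehicle rat at 2 h in 12 of the 22 members on chromosome 20, the class I median was 0.12. In 2-h Severe PE the medians were 0.07 for class I and 0.04 for class II. That of class I was -0.09 without 2-h Vehicle rat 3 and 0.25 without 2-h Vehicle rat 1, and that of class II ran from 0.01 (without 2-h Severe PE rat 2) to 0.14 (without 2-h Severe PE rat 4). Median centring, in place of quantile normalization, gave 0.16 and 0.19.

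At 18 h, 7 members lay wholly above Vehicle in Mild PE lungs (Calr, Ifi30, Psme2, RT1-Da, RT1-DMa, RT1-N3 and Tap1), which is 20% of the members against 10.2% of all genes, and 0 lay below (12.1% of all genes). In 18-h Severe PE lungs, 7 lay wholly above (Calr, Canx, Ctss, Ifi30, Psme2, RT1-DMa and RT1-N3; 20% of members against 14.5% of all genes) and 3 wholly below (Ciita, RT1-Db1 and RT1-M3-1; 8.57% against 16.7%). The medians were -0.02 for class I and 0.06 for class II in 18-h Severe PE, and 0.13 and 0.25 in 18-h Mild PE. Leaving out 1 rat turned the sign of both Severe PE medians, with class I at -0.05 when Severe PE rat 3 was dropped and 0.12 when Severe PE rat 4 was, and class II at -0.09 when Vehicle rat 1 was dropped and 0.12 when Severe PE rat 2 was. In Mild PE the class I median was 0.03 on dropping rat 2 of that group and 0.19 on dropping its rat 4, the class II median stayed between 0.18 and 0.31, and median centring gave 0.03 and 0.15. Both PE groups were compared with the same Vehicle rats, so their differences are not independent of each other.

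**Figure D1:**
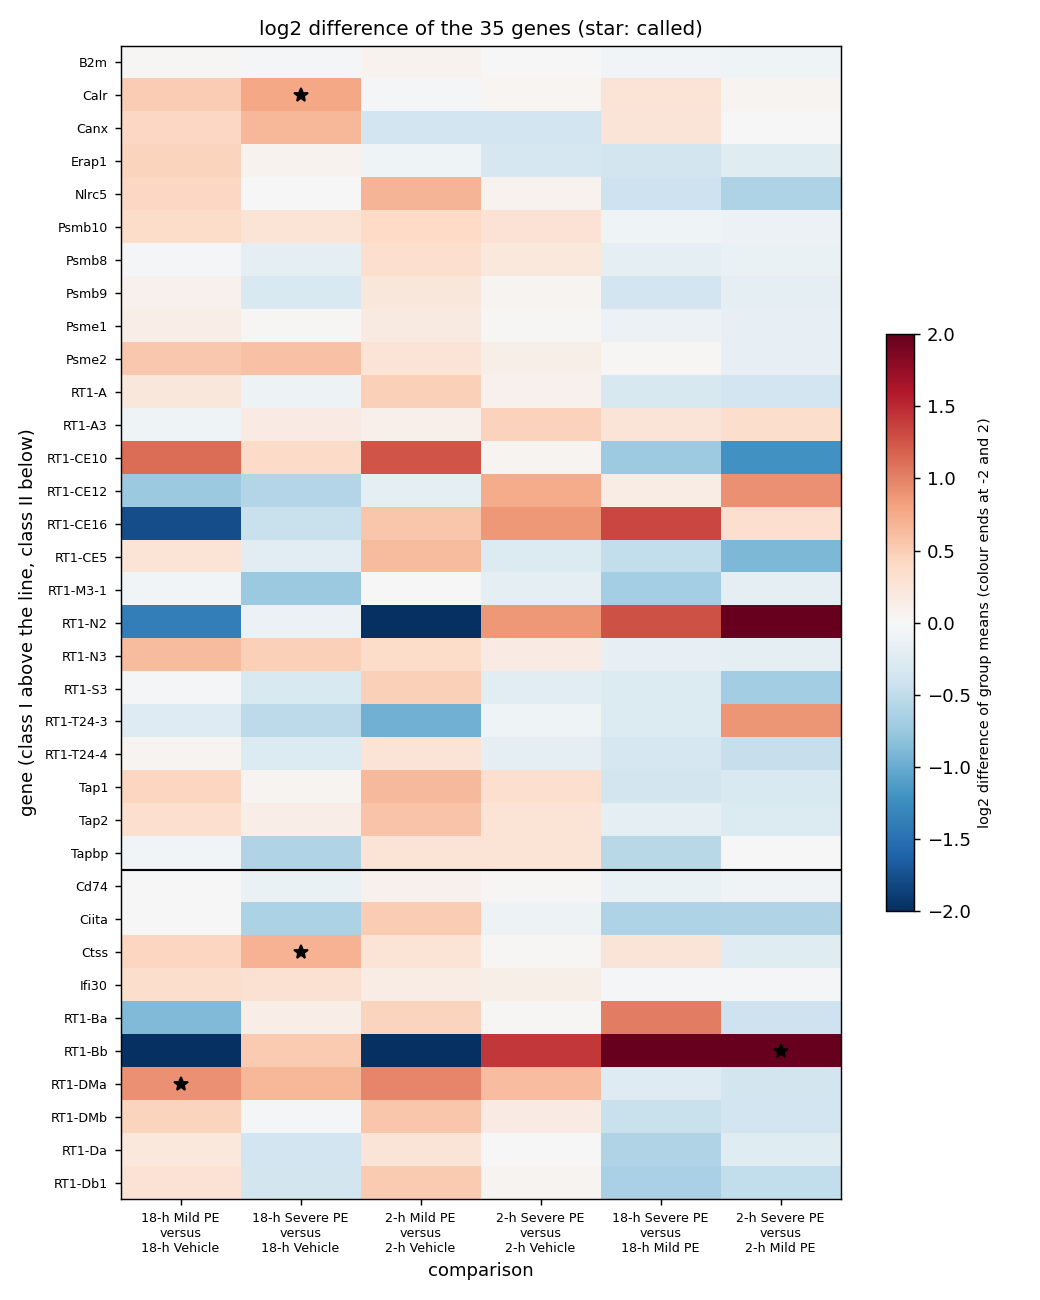
Heat map of the log2 difference of group means for the 35 genes (rows, class I above the line and class II below) in 6 comparisons (columns: both PE groups against Vehicle of the same time, and Severe PE against Mild PE), with colours ending at -2 and 2 and a star on called genes. Stars stand on Calr and Ctss in 18-h Severe PE and RT1-DMa in 18-h Mild PE against Vehicle and on RT1-Bb in 2-h Severe PE against Mild PE, and no gene has one against Vehicle at 2 h.

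Setting the doses against each other, RT1-Bb was the only member called between Severe PE and Mild PE at 2 h (0.549% of all genes). The 22-array fit did not call it and called RT1-S3 in its place, lower in Severe PE (0.767% of all genes), and the methods' t-test called RT1-Bb (0.225%). At 18 h the 2-group limma fit called 0 members and 0% of all genes. There 7 of the 35 members and 2460 of the 14217 genes had an unadjusted p under 0.05. The 22-array fit called RT1-Da and RT1-Db1 lower in 18-h Severe PE than in 18-h Mild PE (adjusted p = 0.00475 and 0.0062; 1.48% of all genes), and the methods' t-test called 0 (0% of all genes). At 2 h, 6 members were lower in all Severe PE than in all Mild PE rats (B2m, Nlrc5, RT1-Da, RT1-Db1, RT1-S3 and RT1-T24-4; 17.1% against 4.92% of all genes) and 3 were higher (RT1-Bb, RT1-CE12 and RT1-N2; 8.57% against 4.2%). At 18 h, 5 were lower in all Severe PE rats (B2m, Ciita, RT1-Da, RT1-Db1 and RT1-DMb; 14.3% against 5.75%) and 2 were higher (Calr and RT1-Bb; 5.71% against 4.9%). RT1-Da and RT1-Db1, on the brightest probe set of each, were thus lower in every Severe PE rat than in every Mild PE rat at both times. On the second RT1-Db1 probe set the 2 doses overlapped at both times. B2m was lower in every Severe PE rat on its brightest probe set, by 0.08 at 2 h and 0.05 at 18 h, but overlapped at both times on its second one.

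A model of time and dose over all 22 arrays, with calls at the same adjusted p and a range of at least 1.5-fold among the 6 group means, called 12 of the 35 genes for dose (34.3%, against 13.7% of all genes). These were RT1-Db1, RT1-DMa, RT1-Da, RT1-Bb and RT1-DMb of class II, and Calr, Tap1, RT1-S3, Psme2, RT1-N3, RT1-M3-1 and RT1-T24-4 of class I. All of them except Calr and Psme2 lie on chromosome 20, which carries the RT1 complex, so the 12 calls are not independent of each other. Some RT1 probe sets split the rats unevenly between the doses, as given below. The RT1 alleles of the rats are not known, and their part in the dose calls was not tested. Time was called for 11 genes (31.4%, against 22.6% of all genes), 5 of class II and 6 of class I. Calr was the single gene called for the interaction of time and dose (2.86%, against 5.35%). The dose count was 7 without 2-h Mild PE rat 3 or without 18-h Mild PE rat 2, and the time count was 6 without 2-h Vehicle rat 3, 7 without 18-h Vehicle rat 2 and 5 without the 4 low-5′ arrays. Which genes kept the time call without these arrays is not listed here, so each time call given below is that of all 22 arrays. Leaving out 2-h Vehicle rat 1 removed the interaction call of Calr, and leaving out 2-h Severe PE rat 1 or 18-h Severe PE rat 2 raised that count to 2.

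In the class II pathway, all 5 calls for dose fell on chains of the presenting molecules and of RT1-DM, and their promoters (with RT1-Ba, the partner of RT1-Bb, and without RT1-DMb) are given for that reason. The sequences are RefSeq's (GRCr8), 5′ to 3′ on the strand of the gene, from 100 to 21 bases before the annotated start. Capitals mark ATTGG or its reverse complement, the core of the Y box that binds NF-Y in class II promoters.
RT1-Da (chr20:4515315-4515394, + strand): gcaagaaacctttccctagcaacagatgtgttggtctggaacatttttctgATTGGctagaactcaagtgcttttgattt
RT1-Db1 (chr20:4560183-4560262, - strand): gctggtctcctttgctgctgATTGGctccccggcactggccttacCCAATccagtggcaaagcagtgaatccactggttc
RT1-Ba (chr20:4576957-4577036, + strand): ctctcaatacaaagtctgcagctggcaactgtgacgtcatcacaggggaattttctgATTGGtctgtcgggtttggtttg
RT1-Bb (chr20:4604139-4604218, - strand): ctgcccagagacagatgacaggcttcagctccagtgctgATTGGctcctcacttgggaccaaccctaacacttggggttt
RT1-DMa (chr20:4712356-4712435, - strand): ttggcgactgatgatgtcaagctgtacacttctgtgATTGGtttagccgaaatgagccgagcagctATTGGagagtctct

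Promoter windows of 250 bases before to 50 after the start were given for 30 of the 35 genes, and those of RT1-DMb, RT1-A, Ciita, Nlrc5 and Erap1 were not used here. On either strand, ATTGG stood in 7 of the 8 class II windows (87.5%) and in 14 of the 22 class I windows (63.6%), against 37.7% of all 27457 windows. TGACGTCA, a cyclic AMP response element, stood in the RT1-Ba window 69 bases before the start and in 1.91% of all windows. These matches describe letters in a window and not binding.

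RT1-Da and RT1-Db1 encode the alpha and beta chain of the molecule that corresponds to human HLA-DR. Both were highest in Mild PE lungs. RT1-Db1 at 18 h was 12.30, 12.05 and 12.08 in Vehicle, 12.50, 12.50, 12.49 and 12.22 in Mild PE, and 11.62, 11.94, 11.80 and 11.77 in Severe PE rats. At 2 h RT1-Db1 was 11.89, 12.07 and 11.81 in Vehicle, 12.47, 12.43, 12.43 and 12.49 in Mild PE, and 11.66, 11.99, 12.05 and 12.19 in Severe PE rats. All 4 Mild PE rats at 2 h and 3 of the 4 at 18 h were thus above every one of the 14 Vehicle and Severe PE rats. Its difference from Vehicle was 0.53 ± 0.07 (SE) in 2-h Mild PE (adjusted p = 0.0538) and -0.36 ± 0.10 in 18-h Severe PE (adjusted p = 0.0839), neither of them called. The dose term over all arrays was called (adjusted p = 0.00029) on this probe set, the brightest. It was not called on the second RT1-Db1 probe set (adjusted p = 0.725), where the doses overlapped at both times. On the brightest, Severe PE differed from Mild PE at 18 h by -0.65 ± 0.09 (adjusted p = 0.0944), a difference that passed when 18-h Mild PE rat 4 alone, or all 4 low-5′ arrays, were left out.

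RT1-Da followed the same order of groups. Its 18-h values were 13.97, 14.08 and 13.74 in Vehicle, 14.14, 14.19, 14.10 and 14.11 in Mild PE, and 13.37, 13.86, 13.44 and 13.48 in Severe PE rats. The 2-h values were 13.78, 13.94 and 13.92 in Vehicle, 14.00, 14.11, 14.25 and 14.16 in Mild PE, and 13.83, 13.87, 13.90 and 13.93 in Severe PE rats. Every Mild PE rat was above every Vehicle rat and above every Severe PE rat of its time, while Severe PE and Vehicle rats overlapped at both times. The dose term was called (adjusted p = 0.00151), and Severe PE against Mild PE at 18 h gave -0.60 ± 0.11 with an adjusted p of 0.111. Among all 22 rats, 7 of the 8 Mild PE rats were among the 8 highest for RT1-Da, and also for RT1-Db1. Both genes lie on chromosome 20, so their results are not independent, and the part of RT1 alleles in them was not tested.

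RT1-Bb encodes the beta chain of the molecule that corresponds to human HLA-DQ, and its signal fell into a high and a low set of rats. At 18 h it was 7.98, 10.99 and 11.99 in Vehicle, 8.10, 7.76, 8.38 and 4.0 in Mild PE, and 11.71, 11.15, 12.06 and 8.43 in Severe PE rats. At 2 h it was 12.02, 11.24 and 7.27 in Vehicle, 8.17, 8.35, 7.53 and 8.25 in Mild PE, and 11.61, 12.22, 11.27 and 11.29 in Severe PE rats. No rat lay between 8.43 and 10.99. The high set of 11 rats held 4 of 6 Vehicle, 0 of 8 Mild PE and 7 of 8 Severe PE rats. Severe PE against Mild PE at 2 h gave 3.52 ± 0.27 (adjusted p = 0.00836, 11.5-fold), and the 22-array fit gave an adjusted p of 0.198. A second RT1-Bb probe set, on which 10 rats were at 10.57 or above and 12 at 6.28 or below, placed only 9 of the 22 rats on the same side as the brighter one. On it the same comparison gave -2.23 (adjusted p = 0.805), and the mean of both probe sets gave 0.65 (adjusted p = 0.89), so the direction of RT1-Bb depended on the probe set.

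RT1-Ba, the alpha chain of the same molecule, was at 12.02 to 13.72 in 21 rats and at 7.53 in 18-h Mild PE rat 4, the rat that also had RT1-Bb at the floor of 4.0. No group difference of RT1-Ba was called, and a second probe set of it was at 11.73 or above in 17 rats and at 9.17 or below in 5.

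RT1-DMa and RT1-DMb encode the chains of the peptide exchanger. RT1-DMa at 18 h was 11.02, 10.66 and 10.61 in Vehicle, 11.59, 11.85, 11.75 and 11.53 in Mild PE, and 11.30, 11.39, 11.71 and 11.28 in Severe PE rats. Its 2-h values were 10.36, 10.46 and 9.87 in Vehicle, 11.15, 11.11, 11.21 and 11.39 in Mild PE, and 10.26, 11.16, 11.12 and 10.85 in Severe PE rats. Every Mild PE rat was above every Vehicle rat at both times, as was every Severe PE rat at 18 h but not at 2 h. The rise in 18-h Mild PE over Vehicle was 1.89-fold (adjusted p = 0.0481), and the call was lost on leaving out any of the 7 rats of that comparison. In 18-h Severe PE the difference was 0.66 ± 0.15 (adjusted p = 0.0546) and in 2-h Mild PE 0.98 ± 0.16 (adjusted p = 0.0944). Both the dose term (adjusted p = 0.000802) and the time term (adjusted p = 0.00214) were called.

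RT1-DMb at 18 h was 12.24, 12.43 and 11.92 in Vehicle, 12.37, 12.86, 12.62 and 12.70 in Mild PE, and 12.15, 12.35, 12.16 and 12.08 in Severe PE rats. At 2 h it was 11.85, 12.09 and 11.37 in Vehicle, 12.31, 12.19, 12.47 and 12.31 in Mild PE, and 11.48, 12.23, 11.98 and 12.06 in Severe PE rats. Mild PE was above Severe PE at 18 h and above Vehicle at 2 h without overlap. Dose (adjusted p = 0.0233) and time (adjusted p = 0.0257) were called for RT1-DMb in the model over all arrays, but no pair of groups was.

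Cd74 had a narrow range. At 18 h it was 14.24, 14.44 and 14.42 in Vehicle, 14.38, 14.43, 14.31 and 14.32 in Mild PE, and 14.15, 14.18, 14.27 and 14.35 in Severe PE rats, and at 2 h 14.40, 14.37 and 14.37 in Vehicle, 14.46, 14.44, 14.53 and 14.45 in Mild PE, and 14.39, 14.45, 14.39 and 14.40 in Severe PE rats. The 2-h Mild PE rats were all above Vehicle, by 0.09 on average (adjusted p = 0.348).

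Ciita was lowest in 18-h Severe PE among the 18-h groups. It was 9.75, 10.15 and 9.81 in Vehicle, 9.5, 10.18, 10.05 and 9.83 in Mild PE, and 9.24, 8.95, 9.39 and 9.48 in Severe PE rats at 18 h. At 2 h it was 9.38, 9.28 and 8.37 in Vehicle, 9.54, 9.12, 9.66 and 9.73 in Mild PE, and 8.29, 9.38, 8.82 and 9.16 in Severe PE rats. The 18-h Severe PE rats were all below 18-h Mild PE and Vehicle rats, with a difference from Vehicle of -0.64 (adjusted p = 0.0707). Only the time term was called (adjusted p = 0.0146). On a second Ciita probe set the time term did not pass (adjusted p = 0.24). There the 18-h Severe PE rats (7.36 to 7.96) were below 18-h Mild PE rats but overlapped 18-h Vehicle, whose lowest rat was at 7.83.

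Ctss and Ifi30 act on antigen and invariant chain in the lysosome. Ctss at 18 h was 11.45, 11.85 and 11.45 in Vehicle, 11.81, 11.82, 11.98 and 12.44 in Mild PE, and 12.27, 12.17, 12.22 and 12.41 in Severe PE rats. At 2 h it was 11.58, 11.50 and 11.54 in Vehicle, 11.93, 11.88, 11.93 and 11.51 in Mild PE, and 11.86, 11.95, 11.30 and 11.14 in Severe PE rats. Every 18-h Severe PE rat was above every 18-h Vehicle rat, a 1.61-fold rise (adjusted p = 0.0285). The call was kept on leaving out 18-h Vehicle rat 2 and lost on leaving out any of the other 6 rats of that comparison. Ifi30 at 18 h was 12.42, 12.26 and 12.39 in Vehicle, 12.66, 12.73, 12.68 and 12.76 in Mild PE, and 12.55, 12.65, 12.83 and 12.65 in Severe PE rats. Its 2-h values were 12.01, 12.18 and 11.80 in Vehicle, 12.27, 12.01, 12.17 and 12.14 in Mild PE, and 11.91, 12.45, 12.07 and 12 in Severe PE rats. Both PE groups lay wholly above Vehicle at 18 h but overlapped it at 2 h, and 18-h Mild PE exceeded 2-h Mild PE by 0.56 (adjusted p = 0.00465), just under the 1.5-fold minimum. Time was called for both genes (Ifi30 adjusted p = 3.48e-05, Ctss adjusted p = 0.0404).

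**Figure D2:**
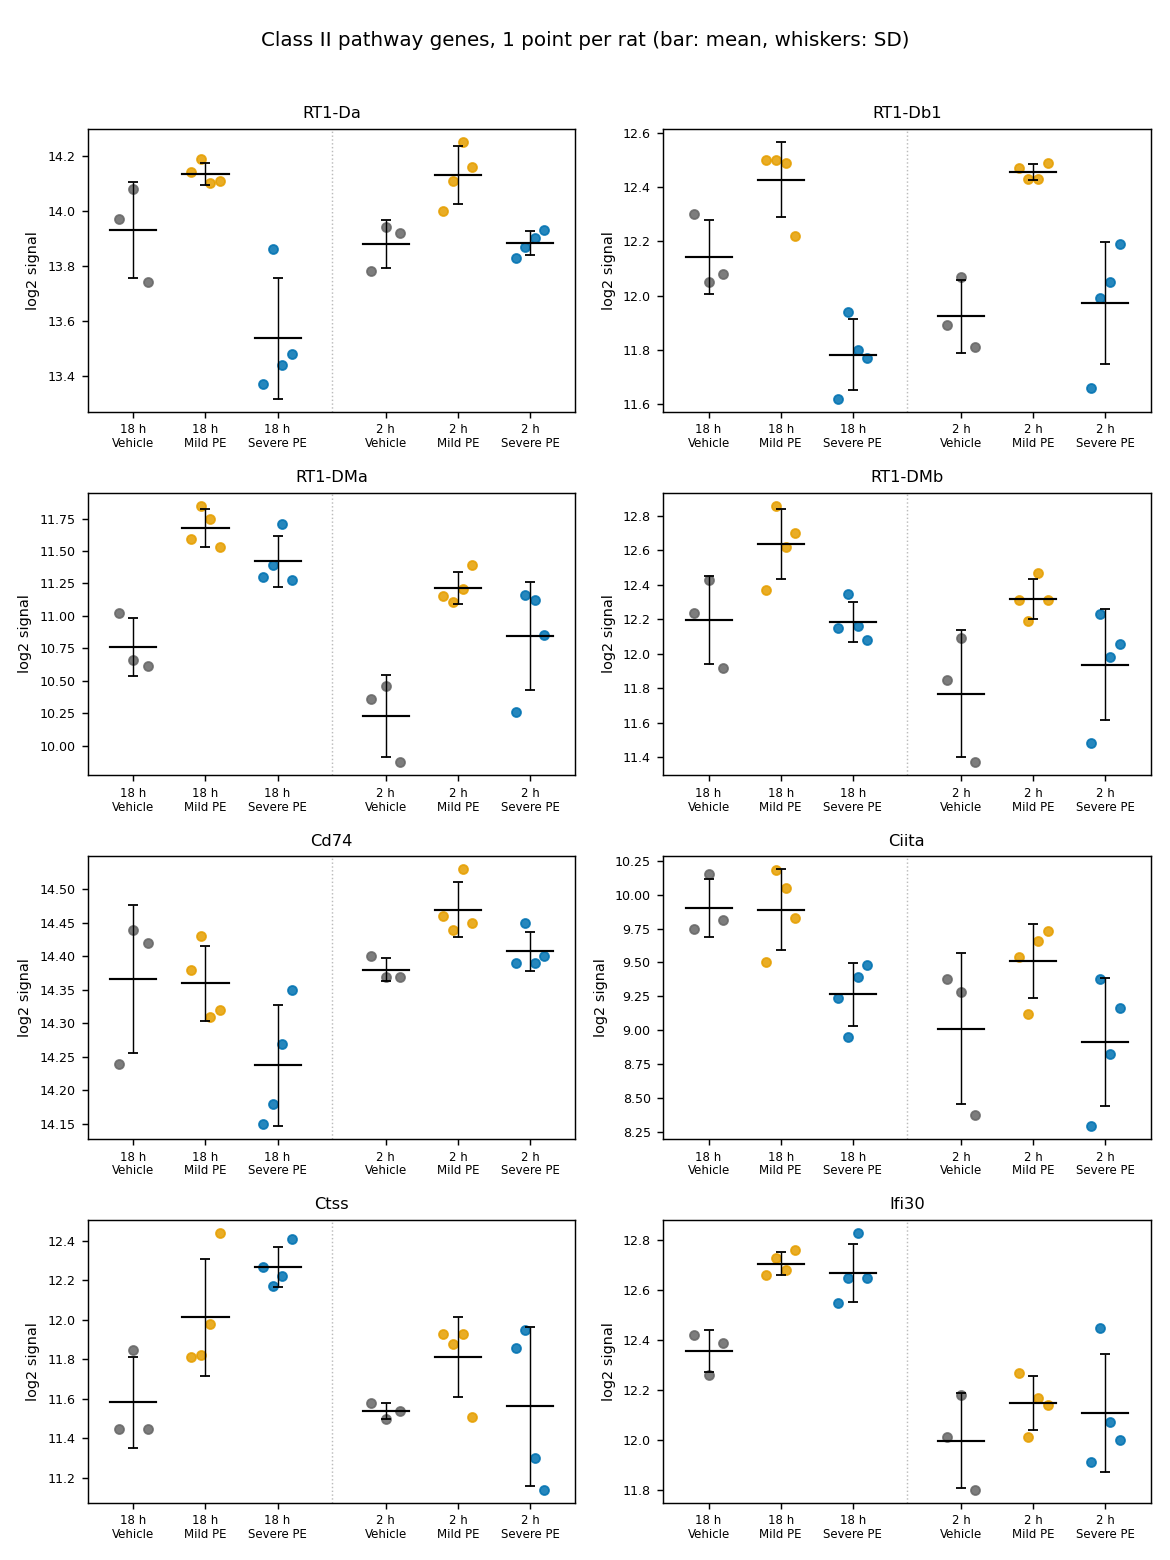
Log2 signal of RT1-Da, RT1-Db1, RT1-DMa, RT1-DMb, Cd74, Ciita, Ctss and Ifi30 (y axis, a separate range for each gene) in each of the 22 rats, by time and dose, with bars for group means and whiskers for the SD. RT1-Da and RT1-Db1 have their highest group means in Mild PE lungs at both times, and all Mild PE rats are above Vehicle for RT1-DMa.

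Markers of the cells that carry class II molecules also differed between the groups. The summed linear signal of the 7 macrophage markers was 9200 to 10100 in 18-h Vehicle, 11200 to 15900 in 18-h Mild PE and 11400 to 13500 in 18-h Severe PE rats, and 1 of them (Cd163) was called higher in Severe PE. At 2 h the macrophage sum was 7600 to 9190 in Vehicle, 9900 to 11100 in Mild PE and 8550 to 11000 in Severe PE rats, with 0 of 7 called and an unadjusted p under 0.05 for 3 in Mild PE. The sums of both PE groups at 18 h and of Mild PE at 2 h thus lay above all Vehicle rats of the same time, but the markers did not move as one. Against Vehicle, 4 of the 7 had a positive difference in 18-h Severe PE (Csf1r, Adgre1 and Pparg were negative) and in 2-h Mild PE (median 0.10). Without Cd68, the brightest marker, the 18-h Mild PE sum overlapped Vehicle (5610 to 8390 against 5180 to 6130), and without Cd68 and Csf1r the 2-h Mild PE sum lay below it (1850 to 2190 against 2250 to 2860). For the 6 dendritic cell markers the sums were 2670 to 2930 in 18-h Vehicle, 3430 to 5510 in 18-h Mild PE and 3010 to 6160 in 18-h Severe PE rats, with 0 called (the 22-array fit called Cd83 higher in Mild PE and Itgax higher in Severe PE). At 2 h they were 1870 to 2910 in Vehicle, 3620 to 4520 in Mild PE and 4220 to 7590 in Severe PE rats, and 1 of 6 (Cd83, an activation marker) was called higher in Mild PE, by 1.52. These sums were above Vehicle in both PE groups at both times. Without Cd83 they stayed above Vehicle at 18 h (1640 to 3940 in Severe PE and 1520 to 2980 in Mild PE, against 1330 to 1400), but overlapped it at 2 h (1230 to 1740 in Severe PE and 1080 to 1240 in Mild PE, against 997 to 1770). These sums without the brightest markers were chosen after the values were seen. The 5 B cell markers went the other way at 18 h, with sums of 2770 to 3420 in Vehicle, 1300 to 2490 in Mild PE and 1500 to 2050 in Severe PE rats. Of these, 1 was called lower in each PE group (Blk in Mild PE, Cd79b in Severe PE). At 18 h, 1.43% of all genes were called in Mild PE and 9.9% in Severe PE against Vehicle, and at 2 h 0.429% were in Mild PE. The part of these cells in the class II values was not tested.

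Promoter segments of class I genes are shown for the genes with a match before the start (that of Psmb8 crossed it) to the core of the interferon-stimulated response element, GAAANNGAA on either strand, in capitals (matches that overlap run together in Tapbp, Psmb10 and RT1-N3). Ctss, the single class II gene with a match, stands beside them. All are RefSeq sequences (GRCr8) on the strand of the gene, 5′ to 3′.
Tap1 (chr20:4668630-4668688, - strand): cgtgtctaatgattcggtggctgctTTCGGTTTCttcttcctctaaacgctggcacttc
Tap2 (chr20:4652304-4652362, - strand): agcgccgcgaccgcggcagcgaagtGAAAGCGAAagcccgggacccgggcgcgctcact
Tapbp (chr20:4967878-4967928, - strand): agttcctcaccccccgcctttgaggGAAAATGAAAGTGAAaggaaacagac
Psme2 (chr15:33052771-33052829, - strand): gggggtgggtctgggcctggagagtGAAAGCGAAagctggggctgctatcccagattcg
Psmb10 (chr19:50743293-50743390, - strand): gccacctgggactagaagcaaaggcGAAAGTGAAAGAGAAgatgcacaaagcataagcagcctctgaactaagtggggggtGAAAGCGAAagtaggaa
B2m (chr3:129549155-129549213, + strand): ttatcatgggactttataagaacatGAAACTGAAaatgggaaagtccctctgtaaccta
RT1-S3 (chr20:2675392-2675450, + strand): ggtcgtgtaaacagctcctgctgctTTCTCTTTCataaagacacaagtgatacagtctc
RT1-N3 (chr20:2666252-2666316, + strand): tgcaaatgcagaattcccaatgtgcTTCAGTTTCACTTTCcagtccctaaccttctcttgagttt
Ctss (chr2:185775335-185775393, + strand): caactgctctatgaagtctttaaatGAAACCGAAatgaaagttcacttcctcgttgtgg

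The core stood in 9 of the 22 class I windows (40.9%) and 1 of the 8 class II windows (12.5%), against 9.5% of all windows. The gamma-activated site TTCNNNGAA stood in 2 of the 30 windows (6.67%, against 8.68% of all). GGGACTTTC, a kappa B motif, stood in the B2m and Tap1 windows (6.67%, against 0.328% of all).

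Calr, calreticulin, a calcium-binding chaperone of the endoplasmic reticulum that holds class I molecules for loading, had the smallest adjusted p of the 35 genes in 18-h Severe PE against Vehicle. Its 18-h values were 12.55, 12.69 and 12.71 in Vehicle, 13.10, 13.23, 13.02 and 13.29 in Mild PE, and 13.47, 13.41, 13.42 and 13.40 in Severe PE rats. At 2 h they were 12.72, 12.53 and 12.38 in Vehicle, 12.58, 12.56, 12.50 and 12.44 in Mild PE, and 12.33, 12.72, 12.79 and 12.49 in Severe PE rats. The 3 doses did not overlap at 18 h, in the order Vehicle, Mild PE, Severe PE, and overlapped fully at 2 h. Calr rose 1.71-fold in 18-h Severe PE over Vehicle (adjusted p = 0.0052), a call kept on leaving out any of its 7 rats, and its 1.42-fold difference in 18-h Mild PE was not called (adjusted p = 0.0606). The Severe PE effect was larger at 18 h than at 2 h by 0.73 ± 0.14 (SE, adjusted p = 0.0058). That of Mild PE differed between the times by 0.53 (adjusted p = 0.0897). Calr was also the only member that the 2-group fits called between times, in Severe PE (0.84 ± 0.10, adjusted p = 0.00758) and in Mild PE (0.64 ± 0.07, adjusted p = 0.00489).

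Canx, calnexin, its membrane-bound relative, had 18-h values of 10.67, 11.30 and 11.35 in Vehicle, 11.64, 11.54, 11.23 and 11.71 in Mild PE, and 11.56, 11.96, 11.82 and 11.76 in Severe PE rats. All Severe PE rats were above Vehicle, by 0.67 (adjusted p = 0.0951). The second brightest of its 3 probe sets was called (1.08, adjusted p = 0.0125). Tapbp, the bridge between Tap and the class I chain, was not called in any comparison, and 18-h Severe PE rat 4 had the lowest Tapbp value of all rats, 8.90.

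Other genes of folding, peptide loading and translocation in the endoplasmic reticulum also rose at 18 h. Of 5 such genes measured, 4 were called higher in 18-h Severe PE over Vehicle: Hspa5 by 1.5 (adjusted p = 0.0149), Uggt1 by 1.26 (adjusted p = 0.0476), Pdia3 by 1.09 (adjusted p = 0.0454) and Sec61a1 by 0.60 (adjusted p = 0.0351). Of all genes, 9.9% were called in that comparison. The median difference of the 5 was 1.09, against 0.00 over all genes. Hspa5, the chaperone BiP, was 13.46, 13.82, 13.55 and 13.71 in 18-h Severe PE rats, against 11.70, 12.28 and 12.44 in 18-h Vehicle rats. Pdia3 is the disulfide isomerase of the peptide-loading complex, Sec61a1 a subunit of the channel through which new chains enter the endoplasmic reticulum and Uggt1 the sensor that returns unfolded glycoproteins to Calr and Canx. In 18-h Mild PE the median of the 5 was 0.66 with 0 called (4 had an unadjusted p under 0.05, and the 22-array fit called Hspa5 and Pdia3). At 2 h the 2-group and the 22-array fits called 0 of them in either PE group, with an unadjusted p under 0.05 for 0 in Severe PE and 3 in Mild PE.

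Tap1 and Tap2 form the peptide transporter. Tap1 at 18 h was 10.56, 10.54 and 10.14 in Vehicle, 10.85, 11.13, 10.66 and 10.74 in Mild PE, and 10.27, 10.57, 10.80 and 10.25 in Severe PE rats. At 2 h it was 10.35, 9.88 and 10.00 in Vehicle, 10.71, 10.54, 10.94 and 10.70 in Mild PE, and 10.21, 10.51, 10.66 and 10.27 in Severe PE rats. Mild PE was wholly above Vehicle at both times, and Severe PE overlapped Vehicle at both. The dose term was called for Tap1 (adjusted p = 0.0141), and the difference of 0.65 in 2-h Mild PE was not (adjusted p = 0.166). A second, dimmer Tap1 probe set was not called for dose (adjusted p = 0.1). On it Mild PE was wholly above Vehicle at 18 h but overlapped Vehicle at 2 h. Tap2 at 18 h was 9.67, 9.61 and 9.15 in Vehicle, 10.09, 9.86, 9.81 and 9.47 in Mild PE, and 9.55, 9.49, 9.75 and 9.66 in Severe PE rats. At 2 h Tap2 was 9.24, 9.05 and 8.88 in Vehicle, 9.71, 9.49, 9.59 and 9.70 in Mild PE, and 8.84, 9.57, 9.66 and 9.29 in Severe PE rats. Only the 2-h Mild PE rats were separate from Vehicle, by 0.57 (adjusted p = 0.116).

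Of the proteasome genes, Psmb10 and Psme2 were called for time and were higher at 18 h. Psmb10, a catalytic subunit, was 11.44, 11.54 and 11.23 in Vehicle, 11.87, 11.93, 11.46 and 11.80 in Mild PE, and 11.58, 11.86, 12.01 and 11.30 in Severe PE rats at 18 h. Its 2-h values were 11.22, 11.04 and 10.48 in Vehicle, 11.49, 11.23, 11.27 and 11.28 in Mild PE, and 10.93, 11.19, 11.40 and 11.30 in Severe PE rats. The time term gave an adjusted p of 0.0029 for Psmb10, and dose was not called. Psme2, a subunit of the activator PA28, was 11.95, 12.08 and 11.93 in Vehicle, 12.68, 12.63, 12.11 and 12.69 in Mild PE, and 12.41, 12.57, 12.96 and 12.31 in Severe PE rats at 18 h. At 2 h Psme2 was 12.06, 11.95 and 11.60 in Vehicle, 12.26, 12.05, 12.16 and 12.12 in Mild PE, and 11.89, 12.01, 12.13 and 11.90 in Severe PE rats. Both PE groups were above Vehicle without overlap at 18 h, by 0.58 in Severe PE (adjusted p = 0.0896) and 0.54 in Mild PE (adjusted p = 0.155). Psme2 was called for time (adjusted p = 0.00605) and for dose (adjusted p = 0.0397). Leaving out 18-h Mild PE rat 3 made the Mild PE difference of Psme2 pass.

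Psmb9 did not pass in any test. It was 11.69, 11.73 and 11.68 in Vehicle, 12.06, 11.92, 11.38 and 11.74 in Mild PE, and 11.42, 11.54, 11.92 and 10.67 in Severe PE rats at 18 h, and 11.79, 11.51 and 11.20 in Vehicle, 11.83, 11.76, 11.76 and 11.58 in Mild PE, and 11.49, 11.68, 11.67 and 11.37 in Severe PE rats at 2 h. Psmb8, the third catalytic subunit, and Psme1, the other activator subunit, were not called either. Of 4 further proteasome genes measured (Psmb5, Psmb7, Psme4 and Pomp), 0 were called in any PE group against Vehicle by the 2-group or the 22-array fit, and 3 had an unadjusted p under 0.05 in 18-h Severe PE.

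Erap1, the trimming peptidase, differed by time (adjusted p = 0.0269) and was lower at 18 h on its brightest probe set. Its 18-h values were 10.36, 10.23 and 10.73 in Vehicle, 11, 10.85, 10.68 and 11 in Mild PE, and 10.11, 10.84, 10.82 and 10.28 in Severe PE rats. The 2-h values were 11.17, 10.79 and 11.71 in Vehicle, 11.08, 11.21, 11.43 and 10.86 in Mild PE, and 11.64, 10.80, 10.72 and 10.44 in Severe PE rats. The 2-h Vehicle rats alone ranged over 0.92, and the 6 group means over 0.79. The second of its 3 probe sets did not pass for time (adjusted p = 0.856), with means of 10.23 in 18-h and 10.07 in 2-h Severe PE and of 10.11 in 18-h and 10.10 in 2-h Mild PE, and the third was close to the floor. The fall of Erap1 thus rested on 1 probe set.

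B2m, the light chain shared by all class I molecules, lay between 14.58 and 14.73 in all 22 rats. It was 14.65, 14.59 and 14.62 in Vehicle, 14.65, 14.67, 14.63 and 14.63 in Mild PE, and 14.58, 14.61, 14.62 and 14.60 in Severe PE rats at 18 h, and 14.67, 14.58 and 14.62 in Vehicle, 14.69, 14.68, 14.73 and 14.67 in Mild PE, and 14.62, 14.58, 14.65 and 14.59 in Severe PE rats at 2 h. All Severe PE rats were below Mild PE of their time, by 0.08 at 2 h (adjusted p = 0.34) and 0.05 at 18 h (adjusted p = 0.592), and the 2-h difference took the opposite sign under median centring (0.09). On the second B2m probe set the groups overlapped, with 13.13 in 2-h Severe PE rat 1 against 12.79 in the highest 2-h Mild PE rat. Nlrc5 was 7.73, 7.45 and 7.36 in Vehicle, 8.42, 8.10, 7.09 and 8.10 in Mild PE, and 7.26, 7.66, 7.73 and 7.44 in Severe PE rats at 18 h. At 2 h Nlrc5 was 7.58, 7.22 and 6.87 in Vehicle, 8.10, 8.16, 7.71 and 7.63 in Mild PE, and 7.37, 7.31, 7.33 and 7.16 in Severe PE rats. Mild PE stood wholly above both other doses at 2 h, by 0.68 over Vehicle (adjusted p = 0.29), and no test of Nlrc5 passed.

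Of the class I heavy chain genes, RT1-S3 and RT1-N3 had the smallest adjusted p-values over the 12 tests. RT1-S3 at 18 h was 12.16, 11.89 and 11.58 in Vehicle, 11.66, 11.96, 12.04 and 11.67 in Mild PE, and 11.35, 11.59, 11.73 and 11.57 in Severe PE rats. At 2 h it was 11.98, 11.67 and 11.89 in Vehicle, 11.97, 12.50, 12.54 and 12.30 in Mild PE, and 11.70, 11.45, 11.94 and 11.45 in Severe PE rats. Severe PE was wholly below Mild PE at 2 h, by 0.69 (adjusted p = 0.0447 in the 22-array fit), and dose was called (adjusted p = 0.0202). RT1-N3 at 18 h was 9.16, 8.72 and 9.05 in Vehicle, 9.72, 9.64, 9.64 and 9.48 in Mild PE, and 9.44, 9.26, 9.72 and 9.40 in Severe PE rats, and at 2 h 9.16, 8.72 and 8.44 in Vehicle, 9.02, 8.93, 9.46 and 9.14 in Mild PE, and 8.80, 8.85, 9.39 and 8.74 in Severe PE rats. Both PE groups were wholly above Vehicle at 18 h only, and time (adjusted p = 0.00991) and dose (adjusted p = 0.042) were called.

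RT1-M3-1, the counterpart of mouse H2-M3, which presents formylated bacterial peptides, averaged 10.40 ± 0.08 in 18-h Vehicle (SD, n = 3), 10.34 ± 0.17 in 18-h Mild PE lungs and 9.66 ± 0.46 in 18-h Severe PE lungs (SD, n = 4 each). Its Severe PE rats lay wholly below Vehicle, by -0.74 (adjusted p = 0.14), and dose was called (adjusted p = 0.0473). RT1-T24-4 averaged 13.22 ± 0.10 in 2-h Severe PE and 13.68 ± 0.12 in 2-h Mild PE (SD, n = 4 each) with dose called (adjusted p = 0.0487). Many class I heavy chain genes are close relatives of each other and probe sequences were not compared here, so the gene behind each of these signals is uncertain.

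**Figure D3:**
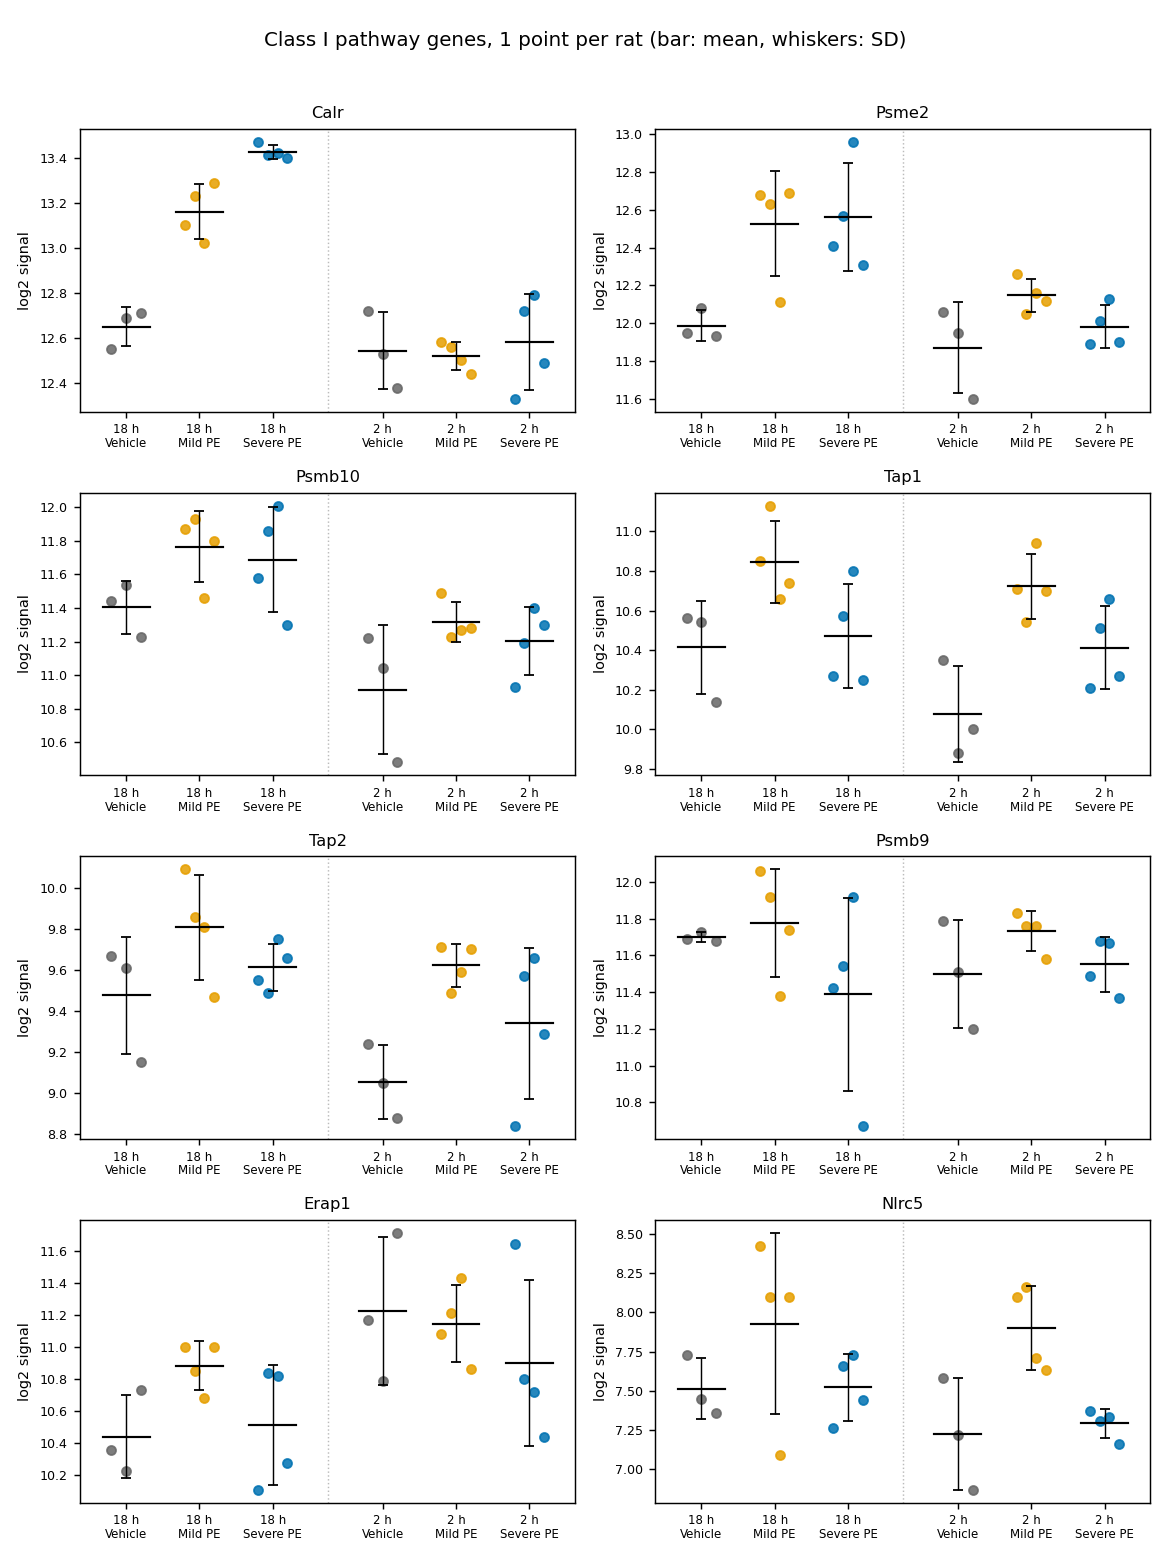
Log2 signal of Calr, Psme2, Psmb10, Tap1, Tap2, Psmb9, Erap1 and Nlrc5 (y axis, a separate range for each gene) in each of the 22 rats, by time and dose, with bars for group means and whiskers for the SD. Calr separates the 3 doses at 18 h and not at 2 h, and all Mild PE rats are above Vehicle of their time for Tap1.

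Sharp splits among single rats were frequent in the RT1 genes. Ordering the 22 rats by signal, a gap of at least 2 log2 units between neighbours was present in 5 of the 31 RT1 probe sets (16.1%), in 0 of the 25 other member probe sets and in 63 of all 20826 probe sets with a single symbol (0.303%), a threshold chosen after the values were seen. On 3 of these 5, and on 18 of the 20826, at least 3 rats stood on each side of such a gap. RT1-N2 was not one of these 5. Its 12 highest rats, at 7.95 or above with the next at 7.13, were the 11 rats that were high for RT1-Bb and 18-h Mild PE rat 4. A cut there, the widest gap among rats above the floor, placed 21 of 22 rats on the same side as RT1-Bb. The cut and the pair were chosen after the values were seen. Other pairs of RT1 probe sets compared in this way had 9 to 19 rats on the same side. RT1-N2 itself differed by 3.18 between Severe PE and Mild PE at 2 h (adjusted p = 0.0725). RT1-CE16 was at 10.34 or above in 9 rats and at 7.34 or below in 13. A probe set with 2 symbols, RT1-A3 and RT1-A2, was at 12.3 or above in 17 rats and at 6.07 or below in 5, all of them Mild PE rats (2 at 18 h and 3 at 2 h). Its high rats were thus 6 of 6 Vehicle, 3 of 8 Mild PE and 8 of 8 Severe PE rats. This probe set was picked after the values were seen, from 6 with several RT1 symbols. The other 5 had no such split, with widest gaps of 0.32 to 0.79. Whether the rats differed in RT1 alleles was not tested.

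**Figure D4:**
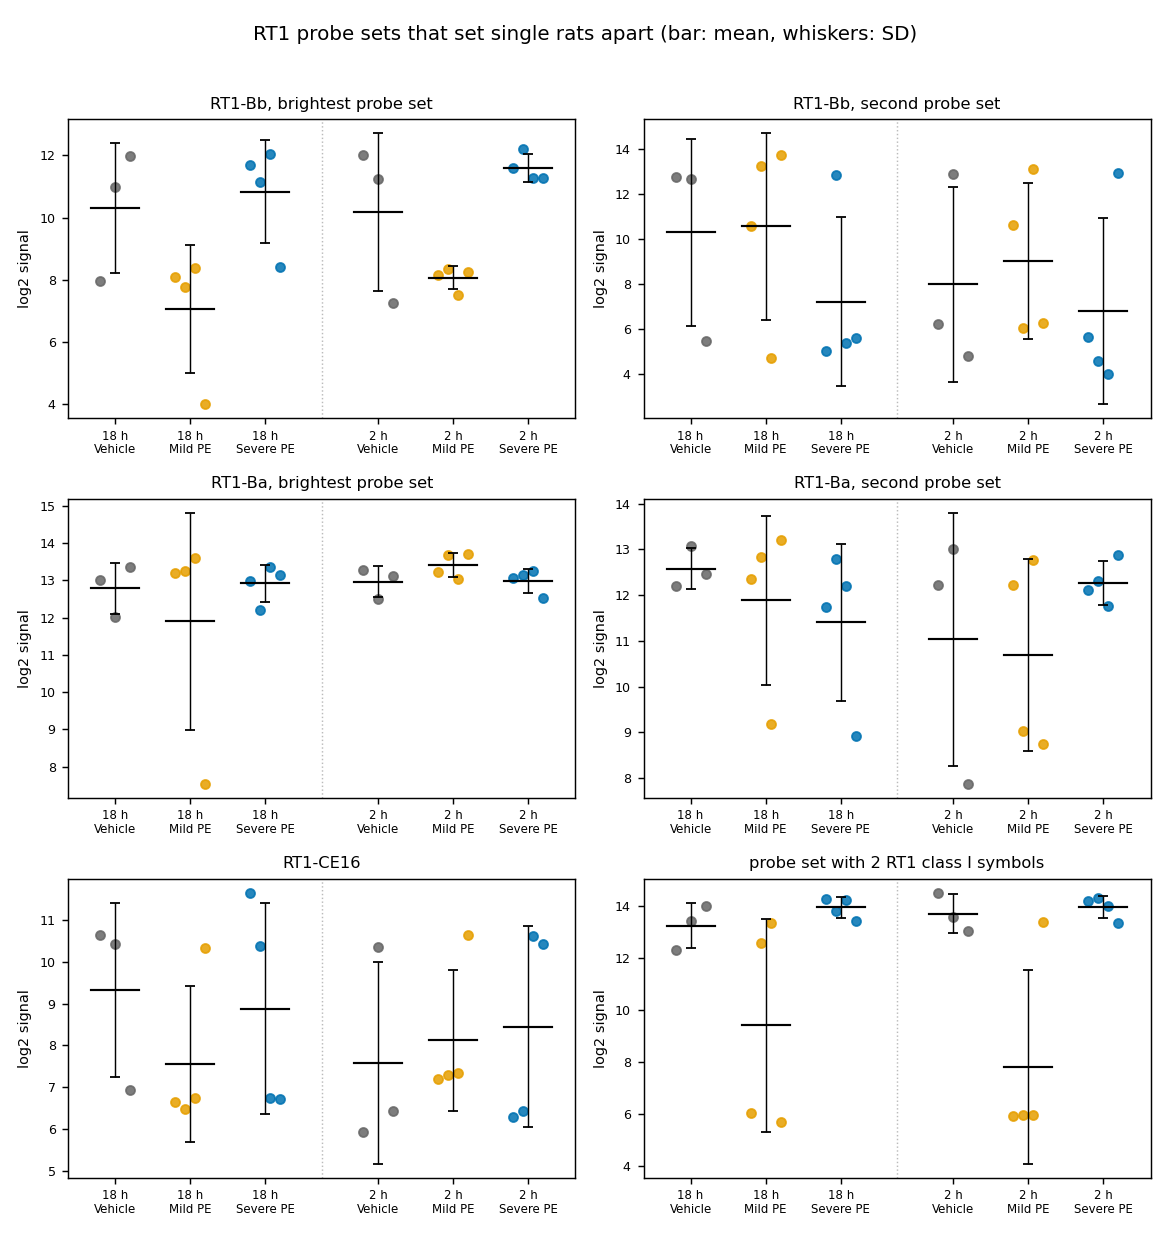
Log2 signal (y axis) in each rat, by time and dose, of the 5 member probe sets with a gap of at least 2 log2 units (RT1-Bb, RT1-Ba and RT1-CE16) and of the probe set with 2 RT1 symbols, with bars for means and whiskers for the SD. High and low rats form separate sets, except on the brightest RT1-Ba probe set, where 18-h Mild PE rat 4 alone is low. On the brightest RT1-Bb probe set all 8 Mild PE rats are in the low set.

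Spread within groups was wider on chromosome 20. The within-group SD had a median of 0.34 over the 22 members there (0.13 to 2.18) and 0.22 over the 12 members on other chromosomes (0.03 to 0.36), against 0.27 over all genes. An SD above 1 was found in 4 of the 22 (RT1-CE16 2.18, RT1-Bb 1.65, RT1-Ba 1.33 and RT1-N2 1.32), in 0 of the 12 and in 76 of all genes (0.535%). Without the 4 low-5′ arrays the medians were 0.33, 0.18 and 0.22, and 2 of the 22 members were above 1. Single rats were often at the edge of their group in many of these genes. Among the 22 members on chromosome 20, 18-h Severe PE rat 3 was the highest of its group in 15 and 18-h Severe PE rat 4 the lowest in 13. Similarly, 18-h Mild PE rat 4 was the lowest of its group in 12 of these 22 but in 0 of the 12 members on other chromosomes.

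**Figure D5:**
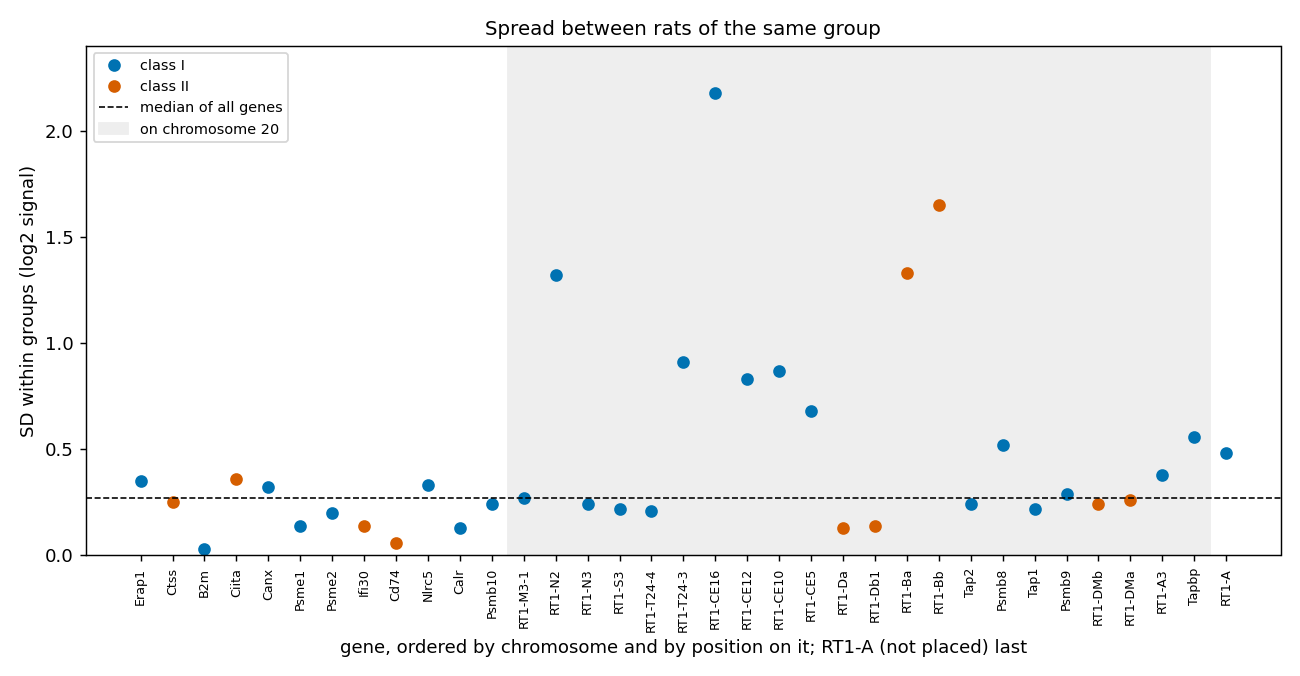
Within-group SD of log2 signal (y axis) of each of the 35 genes, ordered by chromosome and by position, with the 22 on chromosome 20 shaded, RT1-A (not placed) last and the median of all genes, 0.27, as a dashed line. The SDs above 1 are those of RT1-CE16, RT1-Bb, RT1-Ba and RT1-N2, all on chromosome 20.

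Over time, 0 members and 0% of all genes differed between 18-h and 2-h Vehicle by the 2-group limma fit. The unadjusted p was under 0.05 for 4 of the 35 members and for 2893 of the 14217 genes. The 22-array fit and the methods' t-test each called 0 members between the Vehicle groups, against 3.47% and 0% of all genes. Calr was called in the other 2 comparisons of the times, in which 8.63% of all genes were called in Severe PE and 7.1% in Mild PE. The 22-array fit called Calr and Ctss in Severe PE (12.9% of all genes) and Calr in Mild PE (6.11%), and the methods' t-test called Calr in both (5.8% and 5.5% of all genes in Severe and Mild PE). The median class I and class II differences between 18 h and 2 h were 0.13 and 0.18 in Vehicle, 0.03 and 0.10 in Mild PE, and -0.01 and 0.09 in Severe PE. Median centring gave 0.35 and 0.51 in Vehicle (0.19 over all genes, against 0.06 after quantile normalization), 0.16 and 0.28 in Mild PE (0.08 over all genes), and 0.13 and 0.28 in Severe PE (0.10 over all genes). The Vehicle class I median was 0.05 without 2-h Vehicle rat 3 and 0.40 without 2-h Vehicle rat 1. The class I medians of the PE groups took either sign when 1 rat was left out (in Mild PE -0.02 on dropping rat 1 of 18 h and 0.17 on dropping rat 3 of 18 h, and in Severe PE -0.04 on dropping rat 4 of 2 h and 0.10 on dropping rat 4 of 18 h).

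Other gene groups of the pathway are lists chosen with earlier results of these data known. Of 9 interferon-gamma signalling genes, 0 were called against Vehicle in any PE group by the 2-group fits (at most 3 in a comparison had an unadjusted p under 0.05), although the 22-array fit called Irf1, a transcription factor that activates many class I genes, at 2 h in both Severe PE (1.06, adjusted p = 0.0427) and Mild PE (1.12, adjusted p = 0.0372). Of 6 class I-like molecules, Azgp1 fell and Procr rose. Azgp1, a soluble class I-like glycoprotein, was 8.98, 8.51 and 8.26 in 18-h Vehicle, 7.03, 7.30, 6.67 and 7.16 in 18-h Mild PE, and 6.48, 6.84, 6.47 and 6.60 in 18-h Severe PE rats. It fell by 1.98 in Severe PE (adjusted p = 0.00836) and by 1.54 in Mild PE (adjusted p = 0.0481), and at 2 h it fell by 1.26 in Mild PE (adjusted p = 0.0204). Procr, the endothelial protein C receptor, was 11.51, 11.35, 11.46 and 11.38 in 18-h Severe PE rats, against 9.92, 9.23 and 9.53 in 18-h Vehicle rats, a rise of 1.87 (adjusted p = 0.00686). Fcgrt, the neonatal Fc receptor, which pairs with B2m, fell by 0.71 in 18-h Severe PE (adjusted p = 0.0202). Of all genes, 9.9% were called in 18-h Severe PE, 1.43% in 18-h Mild PE and 0.429% in 2-h Mild PE against Vehicle.

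Of 8 lysosomal proteases and inhibitors, Ctsz was called higher in 18-h Mild PE (0.66, adjusted p = 0.0453), where 1.43% of all genes were called. Of 7 class II promoter factors, Rfxank, a subunit of the RFX complex, was called lower in 18-h Severe PE (-0.91, adjusted p = 0.0493), where 9.9% of all genes were called. The 22-array fit did not call it (adjusted p = 0.325). Rfxank was dim, between the floor of 4.0 and 6.73 in all rats. Its mean was 6.43 in 18-h Vehicle, 5.52 in 18-h Severe PE and 5.25 in 18-h Mild PE, where it was not called. Among 4 co-stimulatory molecules, 0 were called, and 2 had an unadjusted p under 0.05 in each PE group at 18 h. Cd86, a ligand of CD28, had a difference of 1.27 in 18-h Mild PE (adjusted p = 0.0799), which the 22-array fit called. Cd80, the other ligand, was at the floor of 4.0 in all 18-h Vehicle rats and at 5.46 or below in every rat, so no difference is given for it.

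Some markers of T cells and endothelium were also called against 18-h Vehicle, and some of neutrophils between the times only. The 5 neutrophil markers had a summed linear signal of 13200 to 25400 in 18-h Vehicle, 14300 to 35400 in 18-h Mild PE and 19400 to 37700 in 18-h Severe PE rats, and 5150 to 9270 in Vehicle, 6510 to 20400 in Mild PE and 5290 to 14600 in Severe PE rats at 2 h. Against Vehicle 0 of the 5 were called at either time, although all 5 differences were positive in both PE groups at 18 h (median 0.88 in Severe PE and 0.49 in Mild PE). Between 18 h and 2 h, 3 were called higher in Severe PE (S100a8, S100a9 and Csf3r; median of the list 1.74) and 2 in Mild PE (Csf3r and Cxcr2; median 0.84). The 9 T cell markers had a summed linear signal of 8500 to 11100 in 18-h Vehicle, 4920 to 8980 in 18-h Mild PE and 3680 to 6440 in 18-h Severe PE rats, and 2 of 9 (Cd3g and Lck) were called lower in Severe PE. The 7 endothelial markers summed to 44100 to 46000 in 18-h Vehicle, 31800 to 39300 in 18-h Mild PE and 26800 to 31700 in 18-h Severe PE rats, and 3 of 7 (Emcn, Tie1 and Vwf) were called lower in Severe PE. Of the 7 alveolar type II cell markers, 1 (Lamp3) was called higher in 18-h Severe PE. In 18-h Severe PE against Vehicle, 9.9% of all genes were called. Between 18 h and 2 h, 8.63% were called in Severe PE and 7.1% in Mild PE. The part of these cells in the values of the members, those called for time included, was not tested.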

How the data were processed

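Per the methods of the study, total RNA of 1 lung per rat was labelled and hybridized to Affymetrix arrays, and groups were compared by 2-way ANOVA and pairwise t-tests on GC-RMA values. The values the authors deposited are linear intensities per probe set, scaled to a common mean on each array, not log2 GC-RMA values. Their 57 control probe sets were left out, leaving 31042. Signals were floored at 16, taken to log2 and quantile normalized with limma 3.58.1 in R 4.3.3, and each pair of groups was fitted with lmFit and eBayes. Genes were read through their brightest probe set with 1 symbol. Probe sets with several RT1 symbols (6) were not used as members. Same-numbered rats did not pair: their residuals correlated at -0.273 to 0.123 (median -0.0208 over 31 pairs). The members and lists were chosen with earlier results of these data known. Values of every rat were given for the 16 members with the smallest adjusted p in any of the tests and for Cd74, B2m, Psmb9 and Nlrc5. The fits were tested on simulated data with known changes. With 3 or 4 arrays per group, their number limits the precision. Alternatives were median centring, a floor of 64, removal of dim probe sets, a replicate block, the methods' t-test or F test, a fit on all 22 arrays, the mean of a gene's probe sets, and leaving out each rat or the 4 low-5′ arrays.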

Additional observations from a re-analysis of the deposited data

Results flagged for a closer look

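Among the groups of 4 rats, 80 were examined for a rat far from the other 3, and 5 had one (6.25%; chance gives about 1 in 20). RT1-Db1 in 18-h Mild PE rat 4 was 12.22, against 12.49 to 12.50 in the other 3 rats. The same rat had RT1-Bb at 4.0, against 7.76 to 8.38 in the others, and its array was one of the 4 low-5′ arrays. Psme2 in 18-h Mild PE rat 3 was 12.11, against 12.63 to 12.69. Ctss in 2-h Mild PE rat 4 was 11.51, against 11.88 to 11.93. Cd74 in 2-h Severe PE rat 2 was 14.45, against 14.39 to 14.40. Between the times, the effect of Severe PE on Calr was larger at 18 h than at 2 h by 0.73 on the log2 scale, by a test of the difference itself (limma, adjusted p = 0.0058).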

How the results depend on the processing

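Counts of members called moved with the processing as follows, and the cause was not tested. Median centring gave 2 for 2-h Severe PE versus Mild PE, 0 for 18-h Mild PE versus Vehicle, 2 for 18-h versus 2-h Mild PE, 4 for 18-h versus 2-h Severe PE, 5 for dose and 0 for the interaction. A floor of 64 gave 2 for 2-h Severe PE versus Mild PE and 0 for 18-h Mild PE versus Vehicle. Without dim probe sets the counts were 1 for 2-h Mild PE versus Vehicle, 2 for 2-h Severe PE versus Mild PE, 2 for 18-h Mild PE versus Vehicle, 5 for 18-h Severe PE versus Vehicle, 2 for 18-h versus 2-h Severe PE and 2 for the difference of the Severe PE effect between times. With the replicate number as a block, which does not pair the rats, the count was 0 in all 5 pairs of groups in which a member had been called. The methods' t-test gave 0 for 18-h Mild PE and 1 for 18-h Severe PE versus Vehicle. The 22-array fit gave 1 for 2-h Mild PE, 2 for 18-h Mild PE and 4 for 18-h Severe PE versus Vehicle, 2 for 18-h Severe PE versus Mild PE and 2 for 18-h versus 2-h Severe PE, and its 1 call for 2-h Severe PE versus Mild PE was RT1-S3, not RT1-Bb. The mean of a gene's probe sets gave 0 for 2-h Severe PE versus Mild PE, 2 for 18-h Mild PE and 4 for 18-h Severe PE versus Vehicle, 2 for 18-h versus 2-h Mild PE and 2 for the difference of the Severe PE effect. Without the 4 low-5′ arrays there were 1 for 2-h Mild PE, 0 for 18-h Mild PE and 1 for 18-h Severe PE versus Vehicle, 1 for 18-h Severe PE versus Mild PE, 5 for time and 2 for the difference of the Severe PE effect.

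Leaving out each rat in turn gave 0 to 1 for 2-h Mild PE versus Vehicle (1 without 2-h Vehicle rat 2 or rat 3), 0 to 1 for 18-h Mild PE versus Vehicle (1 only without 18-h Mild PE rat 3), 1 to 2 for 18-h Severe PE versus Vehicle (2 only without 18-h Vehicle rat 2), 0 to 1 for 18-h Severe PE versus Mild PE (1 without 18-h Mild PE rat 4), 1 to 3 for 18-h versus 2-h Mild PE (3 without 2-h Mild PE rat 1, 2 without rat 3), 1 to 2 for 18-h versus 2-h Severe PE (2 without 2-h Severe PE rat 2 or rat 3), 6 to 12 for time, 7 to 13 for dose, 0 to 2 for the interaction and 1 to 2 for the difference of the Severe PE effect (2 without 2-h Severe PE rat 1). Median centring reversed B2m in 2-h Severe PE versus Mild PE (0.09) and Cd74 in 18-h versus 2-h Severe PE (0.16). Of 391 values of single genes, 353 kept their direction and call, 27 lost a call and 9 gained one. Of 258 class medians, 14 moved by more than the spread between rats and 18, in 5 results (Severe PE versus Vehicle, class I at 2 h and both classes at 18 h, and 18 h versus 2 h, class I in both PE groups), took the opposite sign. With 3 or 4 rats per group, the number of arrays limits the precision.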
